A study of Mus musculus with 4 samples.

Results

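Genes of serine synthesis, folate one-carbon metabolism, amino acid transport and the amino acid stress response were examined in double positive thymocytes, developing T cells that carry both CD4 and CD8, from mice with and without a CD4-Cre transgene meant to remove Ikaros. The 39 genes were chosen by their role, as a pathway list, and were selected on knowledge of earlier results for the same comparison of these 4 arrays. Their differences and calls are therefore given as a description and are no independent evidence. Pycr1 had no probe set with a single gene symbol here, so only its promoter was examined. The other 38 of the 39 listed genes had 86 such probe sets in all, among 18193 genes named on the array. The mean signal of 29 of these genes reached the filter of 4.76 on the log2 scale, which 11639 genes passed in all, and 9 lay below it.

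The control group was Ikf/f CD4-Cre- (Cre-negative, 2 mice) and the other group Ikf/f CD4-Cre+ (Cre-positive, 2 mice), with 1 Affymetrix mouse array per mouse. All 4 mice carried the Ikf/f alleles, and no mouse with CD4-Cre alone is among the groups, so that effects of Cre and of Ikaros loss cannot be told apart. The CD4-Cre transgene is active in T lineage cells from the late double negative and double positive stages on. The labels used here give no age or sex and do not say how the cells were isolated. In the text below, "without Cre" and "with Cre" introduce the values of samples 1 and 2 of each group, in that order.

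Serine is made from the glycolytic intermediate 3-phosphoglycerate by the enzymes Phgdh, Psat1 and Psph, and its side chain carbon is passed to folate by serine hydroxymethyltransferases to feed purine, thymidylate and methionine synthesis. When amino acids run short, the kinase Gcn2 phosphorylates the translation factor eIF2 alpha. Translation of the transcription factor ATF4 then increases, and ATF4, paired with C/EBP family proteins, activates genes of amino acid uptake and synthesis together with stress genes such as Ddit3, Trib3 and Chac1. Proliferating thymocytes and T cells draw on the same uptake and synthesis genes for growth.

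In the Cre-positive mice 4 members rose: Phgdh, which encodes the entry enzyme of serine synthesis, the large neutral amino acid transporter gene Slc7a5, the mitochondrial phosphoenolpyruvate carboxykinase gene Pck2 and the lipoprotein receptor gene Vldlr. On the log2 scale Phgdh differed by 0.94, Slc7a5 by 1.15 and Pck2 by 1.22, or 1.92-fold to 2.33-fold. Vldlr differed by 1.59, from Cre-negative signals just under the filter, so that it was tested only because it was higher in the Cre-positive mice. Psat1, Slc7a1, Slc7a11 and Shmt2 differed by 0.69 to 1.03 without passing the test. Several genes by which an ATF4 stress response is usually recognised were not called: Atf4 differed by −0.23, Ddit3 by −0.13 and Trib3 by 0.08, and Asns, Chac1 and Atf3 stayed below the signal filter. Of the 6 kept regulators of the ATF4 pathway 0 were called in limma (1 higher at an unadjusted p under 0.05, Atf5), and of the 4 kept stress effectors 1, Vldlr. The list is described here by its named genes, and whether an ATF4 stress response had a part was not tested. ATF4 activity is set largely by translation, which arrays do not measure.

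Values are RMA log2 signals, compared with limma over all 11639 kept genes; a gene was called at a Benjamini-Hochberg adjusted p under 0.05. Of the 29 kept members 4 were called higher (13.8%), against 1.11% of all kept genes, and 0 were called lower, against 0.266%. At an unadjusted p under 0.05, 10 members were higher and 1 lower, where the shares of all kept genes were 14.3% and 6.29%. Both Cre-positive arrays lay above both Cre-negative arrays for 14 members (48.3%; 34.2% of all kept genes) and below them for 5 (17.2%; 18.7% of all kept genes). A difference of at least 0.6 was seen for 8 members (27.6%) and 6.83% of all kept genes. Because the members were chosen with this contrast known, these shares describe the list and nothing is drawn from them. The median difference of the 29 members was 0.16, against 0.06 for all kept genes. When each array was centred on its median over the kept genes, the median of all genes moved to −0.07 and that of the members to 0.04. Calls over all genes then went from 129 higher and 31 lower (80.6% higher) to 75 higher and 48 lower (61% higher), and 2 of the 4 members stayed called, Pck2 and Vldlr. Under this centring the small differences of Cbs, Cebpg, Got1, Slc38a1, Stc2 and Trib3 changed sign.

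The arrays correlated across probe sets at r = 0.992 within the Cre-negative group and 0.994 within the Cre-positive one, and at 0.984 to 0.988 between groups. Ikzf1, the targeted gene, fell by 1.53 ± 0.16 (SE, n = 2 per group; limma adjusted p = 0.024), from 12.40 and 12.08 to 10.80 and 10.62. The defining genes Cd4, Cd8a, Cd8b1, Rag1 and Rag2 read between 10.34 and 13.46 on all 4 arrays. Of the 10 double positive thymocyte markers 0 were called in limma (2 higher and 3 lower at an unadjusted p under 0.05). The groups did not overlap for 9 of them. In the Cre-positive mice 7 were lower (18.7% of all kept genes were), with Cd1d1 at −0.66. The other 2 were higher (34.2% of all kept genes were), Cd3e at 0.41 and the pre-T cell receptor gene Ptcra at 1.16 ± 0.18 (SE, limma adjusted p = 0.054). Whether the make-up of the thymocytes has a part in the differences of the members was not tested. Cre-negative sample 2 stood apart in sex-linked genes, with Xist at 12.75 against 4.73 to 5.37 on the other arrays, so the groups were not matched for sex. In bulk RNA, fewer cells of a type and less RNA per cell cannot be told apart.

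**Figure D1:**
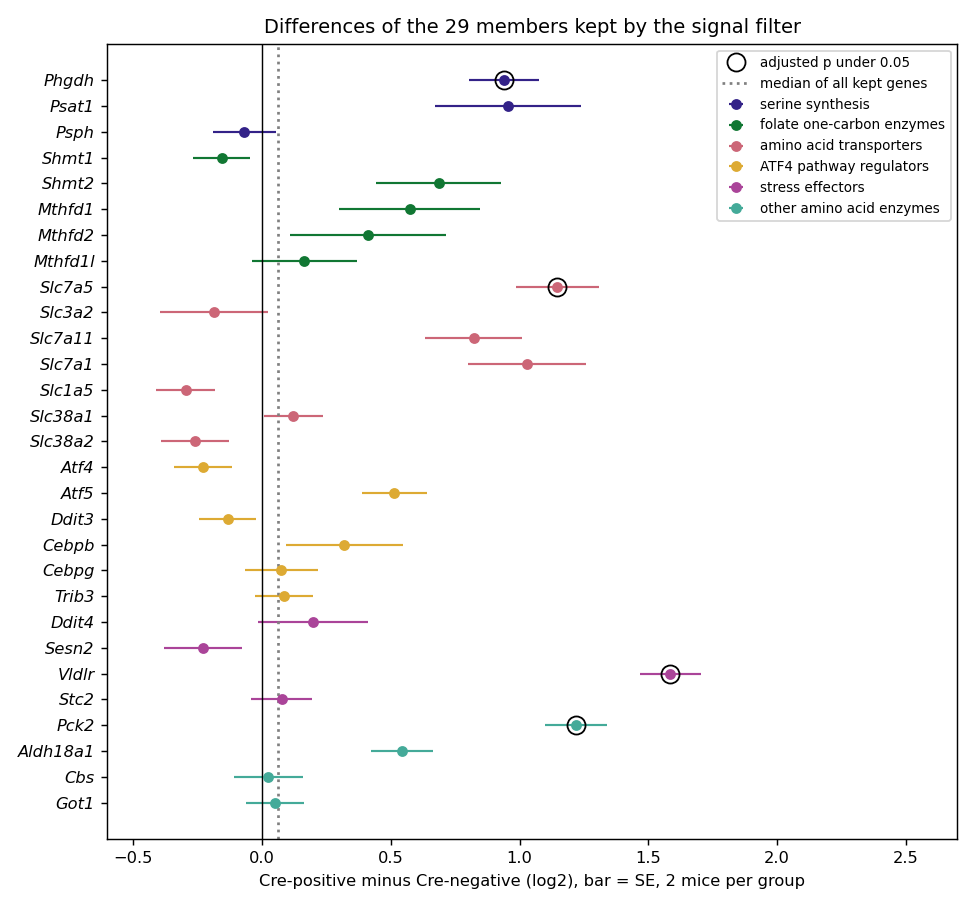
Difference between Cre-positive and Cre-negative mice for the 29 members kept by the signal filter, on the log2 scale, with the moderated SE as bars (2 mice per group) and colours for the role of the gene. Circles mark the 4 called genes, which lie between 0.94 and 1.59, while the regulators around Atf4 lie between −0.23 and 0.51; the dotted line is the median of all kept genes, 0.06.

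ATF4 and its C/EBP partners bind a composite DNA element, and its core letters were looked for in the promoters of the members to set the presence of the element beside the measured differences. The window ran from 250 bases before to 50 bases after the start in RefSeq (build GRCm38.p6), and TGATGNAA was searched on both strands. Promoters of 33 of the 39 members were matched by symbol; Aldh1l2, Cth, Slc1a5, Slc38a1, Slc7a3 and Slc7a5 were not. The core was found for 11 of the 33 (33.3%): Asns, Atf3, Chac1, Got1, Nupr1, Pck2, Pycr1, Slc1a4, Slc7a11, Trib3 and Vldlr. Of all 32851 promoters of this length 3.97% held it, and of the 27025 genes they belong to 4.51%. The list was put together in part from known ATF4 targets, so the higher share is no observation of these arrays. The 250 bases before the start are shown for the 3 members with the core that differed by at least 0.6, and for Asns, a textbook target of ATF4 that lay below the signal filter. The core is in capitals, as TGATGNAA or its reverse complement. The Vldlr stretch is chr19:27216770-27217019 on the plus strand, that of Pck2 chr14:55540016-55540265 on the plus strand, that of Slc7a11 chr3:50443614-50443863 on the minus strand and that of Asns chr6:7693210-7693459 on the minus strand, each written 5′ to 3′ along the gene.
Vldlr: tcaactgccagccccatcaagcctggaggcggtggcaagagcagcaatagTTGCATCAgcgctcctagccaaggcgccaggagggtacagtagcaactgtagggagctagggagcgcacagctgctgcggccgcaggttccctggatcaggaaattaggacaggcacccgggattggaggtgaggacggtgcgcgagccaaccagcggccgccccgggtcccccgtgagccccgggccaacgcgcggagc
Pck2: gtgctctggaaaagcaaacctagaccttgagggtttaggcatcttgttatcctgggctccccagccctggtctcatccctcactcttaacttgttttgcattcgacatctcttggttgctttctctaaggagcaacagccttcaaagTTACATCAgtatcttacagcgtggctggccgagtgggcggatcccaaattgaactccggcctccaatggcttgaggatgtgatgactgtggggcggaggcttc
Slc7a11: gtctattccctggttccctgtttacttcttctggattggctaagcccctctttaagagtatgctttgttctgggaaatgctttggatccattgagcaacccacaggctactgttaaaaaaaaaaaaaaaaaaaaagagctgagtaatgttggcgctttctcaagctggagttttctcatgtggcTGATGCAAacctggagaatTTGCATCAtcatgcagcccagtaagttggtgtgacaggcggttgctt
Asns: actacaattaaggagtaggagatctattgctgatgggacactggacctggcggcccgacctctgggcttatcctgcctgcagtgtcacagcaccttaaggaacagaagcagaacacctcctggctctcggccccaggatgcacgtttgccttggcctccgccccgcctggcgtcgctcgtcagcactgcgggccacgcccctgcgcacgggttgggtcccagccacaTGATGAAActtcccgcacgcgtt

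The core began 200 bases before the start in Vldlr, 103 in Pck2 and 23 in Asns. Slc7a11 held it on both strands, from 66 and from 47 bases before its start. Members with these letters had both large and small differences. Among the members with the core, Vldlr, Pck2 and Slc7a11 differed by 1.59, 1.22 and 0.82. Trib3 and Got1 differed by 0.08 and 0.05, and Asns, Atf3, Chac1, Nupr1 and Slc1a4, all below the signal filter, by −0.25 to 0.15. Phgdh, Psat1, Slc7a1 and Shmt2 had differences of 0.69 to 1.03 and no such core in the window. Over all kept genes with a RefSeq promoter, the median difference was 0.07 for the 252 genes with the core and 0.06 for those without. Of the 252, 5 were called higher (1.98%). The share was 1.11% over all 11639 kept genes, of which only 9445 had a RefSeq promoter, so the 2 shares rest on unlike sets. The 5 include the members Pck2 and Vldlr, which were chosen with this contrast known. Vldlr was also kept only through its Cre-positive signal.

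The E-box CACGTG, which Myc and related factors bind, was in the window of 3 members, Aldh18a1, Cbs and Nupr1 (9.09% of the 33; 8.09% of all genes and 7.15% of all promoters). The Ikaros core TGGGAA was in that of 9 members (27.3%; 28.3% of all genes and 25.6% of all promoters), Aldh18a1, Asns, Nupr1, Sesn2, Shmt1, Shmt2, Slc1a4, Slc3a2 and Slc7a11. None of the 3 called members with a promoter in the table, Phgdh, Pck2 and Vldlr, held either set of letters. A match is a run of letters, and binding was not measured.

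**Figure D2:**
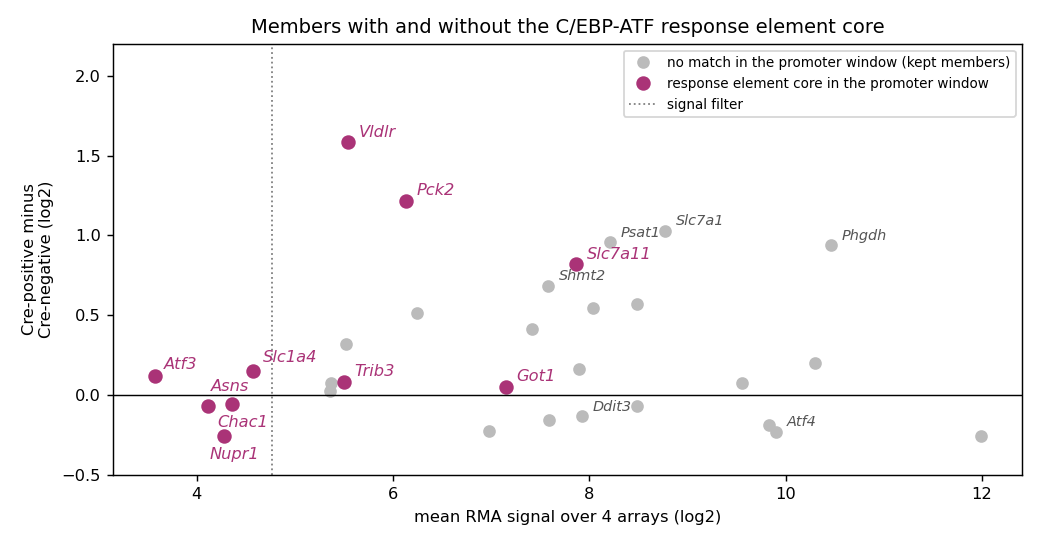
Difference between Cre-positive and Cre-negative mice (log2) against the mean signal over the 4 arrays (log2) for members with TGATGNAA on either strand of the promoter window and for kept members without it; the dotted line is the signal filter at 4.76. Members with the core lie between −0.25 and 1.59, and 5 of them sit to the left of the filter; Phgdh, Psat1 and Slc7a1 lie near 1 without it.

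Of the 3 enzymes of serine synthesis 1 was called, Phgdh, and 2 were higher at an unadjusted p under 0.05, Phgdh and Psat1. Phgdh read 9.87 and 10.11 without Cre and 10.99 and 10.87 with Cre. The groups did not overlap and each pair of mice lay close together, at 9.99 ± 0.17 without Cre and 10.93 ± 0.09 with it (mean ± SD, n = 2). Phgdh thus rose by 0.94 ± 0.14 (SE), or 1.92-fold, with a limma adjusted p of 0.049; 2.49% of kept genes had a larger difference. The call was lost under 5 of 11 alternatives that kept all arrays, whose adjusted p ran up to 0.067, at differences of at least 0.81. All 4 Phgdh probe sets had non-overlapping groups, with differences of 0.77 to 0.94. Each of them is of a type that can bind more than 1 transcript, so Phgdh has no value from probe sets without such binding.

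Psat1, which encodes the aminotransferase of the second step, read 7.32 and 8.14 without Cre and 8.53 and 8.84 with Cre. The groups did not overlap, but the Cre-negative mice differed from each other by 0.82, nearly as much as the groups did (0.96 ± 0.28, SE; limma adjusted p = 0.153). In the other Psat1 probe set the groups overlapped, and the difference was 0.66. Psph, the phosphatase of the last step, read between 8.42 and 8.61 on all arrays and differed by −0.07.

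Among the folate one-carbon enzymes 0 of 5 kept genes were called in limma, and 1 had an unadjusted p under 0.05, Shmt2. This gene of mitochondrial serine hydroxymethyltransferase read 6.88 and 7.59 without Cre and 8.01 and 7.83 with Cre. Its difference was 0.69 ± 0.24 (SE; limma adjusted p = 0.198), and its 4 probe sets ran from 0.31 to 0.69. The groups did not overlap, and Cre-negative sample 1 lay well below the other 3 arrays.

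That low Cre-negative sample 1 recurred along the pathway. Mthfd1, the cytosolic enzyme with 3 activities that interconverts folate one-carbon units, read 7.80 there against 8.60 to 8.89 on the other arrays, and differed by 0.57 between the groups. Mthfd2, its mitochondrial counterpart in proliferating cells, read 6.89 and 7.53 without Cre and 7.27 and 7.97 with Cre, so that the groups overlapped. The mitochondrial formyltetrahydrofolate synthetase gene Mthfd1l differed by 0.16 and also overlapped. The brightest probe set of Shmt1, the cytosolic hydroxymethyltransferase, differed by −0.16, while its other 3 ran from 0.20 to 0.68. Aldh1l2, the mitochondrial formyltetrahydrofolate dehydrogenase, lay below the filter at 3.80 to 4.14.

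Of the 7 kept transporters 1 was called, Slc7a5. At an unadjusted p under 0.05, Slc7a5, Slc7a1 and Slc7a11 were higher, carriers of large neutral amino acids, cationic amino acids and cystine, and Slc1a5, a carrier of glutamine, was lower. Slc7a5 (LAT1), which exchanges glutamine for leucine and other large neutral amino acids, read 5.40 and 5.78 without Cre and 6.79 and 6.68 with Cre. It rose by 1.15 ± 0.16 (SE, n = 2 per group; limma adjusted p = 0.046), or 2.21-fold, in its only probe set, with no overlap between the groups. Under 3 of the alternatives that kept all arrays the adjusted p was above 0.05, at 0.051 to 0.063. Its partner Slc3a2 (CD98 heavy chain), which carries LAT1 and other light chains to the membrane, read 9.98 and 9.87 against 10.03 and 9.45, and the groups overlapped.

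Slc7a1 (CAT1), a carrier of arginine and lysine, read 7.95 and 8.57 without Cre and 9.16 and 9.42 with Cre, a difference of 1.03 ± 0.23 (SE; limma adjusted p = 0.096). A dimmer Slc7a1 probe set above the filter differed by 0.87, and the third, below it, by −0.22. Slc7a11 (xCT), which imports cystine in exchange for glutamate, read 7.20 and 7.71 against 8.29 and 8.26, a difference of 0.82 ± 0.19 (SE; limma adjusted p = 0.103); its other probe set differed by 0.57. In both genes the groups did not overlap, and Cre-negative sample 1 was the lowest array.

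Slc1a5 (ASCT2), a glutamine and small neutral amino acid exchanger, read 9.32 and 9.20 without Cre and 8.95 and 8.97 with Cre. It differed by −0.30 ± 0.12 (SE; limma adjusted p = 0.233), and by −0.36 in its other probe set. Slc38a2 (SNAT2), a sodium-coupled carrier that cells raise when amino acids are withdrawn, differed by −0.26 in its brightest probe set, by −0.88 in the next and by 0.22 in the third. The related carrier Slc38a1 differed by 0.12 and −0.24 in its 2 probe sets. Slc7a3 (CAT3) and Slc1a4 (ASCT1) lay below the filter, with differences of −0.01 and 0.15.

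Among the regulators Atf4 read 9.99 and 10.04 without Cre and 9.74 and 9.82 with Cre, a difference of −0.23 ± 0.11 (SE; limma adjusted p = 0.329). The groups did not overlap in that probe set, but a second one above the filter differed by 0.05.

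Ddit3 (CHOP), a stress-induced C/EBP family factor, read 8.01 and 7.97 without Cre and 7.85 and 7.86 with Cre. Its difference was −0.13, and its dimmer probe set differed by −0.73, with readings of 6.78 and 6.60 against 5.97 and 5.95; in both the Cre-positive mice were the lower ones. Atf5, an ATF4-related factor, read 6.07 and 5.90 against 6.56 and 6.44, a difference of 0.51 ± 0.13 (SE; limma adjusted p = 0.115). Cebpg, a dimerisation partner of ATF4, differed by 0.08 and Cebpb by 0.32, with overlapping groups in each. Trib3, a pseudokinase that restrains ATF4, differed by 0.08, and by 0.29 in a dimmer probe set below the filter. In both Trib3 probe sets the Cre-positive mice were the higher ones, with no overlap. Atf3 and Nupr1 lay below the filter at 3.51 to 3.75 and 4.14 to 4.52.

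**Figure D3:**
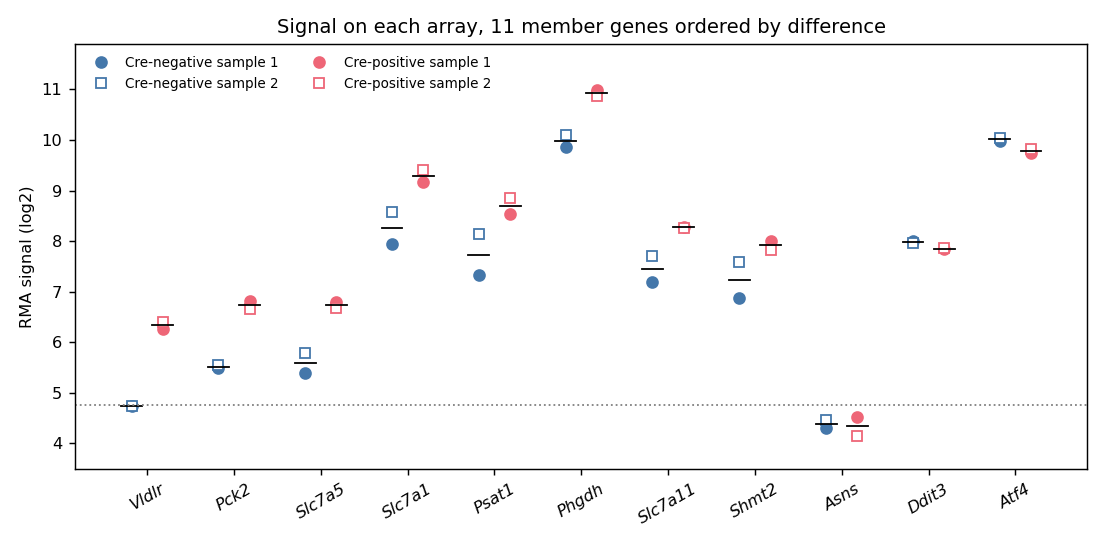
RMA signal (log2) on each of the 4 arrays for the 8 members that differed by at least 0.6 and for Asns, Ddit3 and Atf4, ordered by difference; short lines are group means (n = 2) and the dotted line is the signal filter at 4.76. The Cre-positive arrays lie above the Cre-negative ones for the 8 genes from Vldlr to Shmt2, Asns stays below the filter on all arrays, and Atf4 and Ddit3 lie slightly lower in the Cre-positive mice.

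Of the stress effectors Vldlr rose, and the 3 others kept by the filter did not pass. Vldlr, a lipoprotein receptor gene whose transcript rises in ATF4-dependent stress in other cells, read 4.75 on both Cre-negative arrays and 6.26 and 6.40 on the Cre-positive ones. The fitted rise was 1.59 ± 0.12 (SE, n = 2 per group; limma adjusted p = 0.014). Both Cre-negative values lay just under the filter of 4.76, so the gene was kept only through its Cre-positive signal and had to differ to be tested; its fold is therefore not given. The groups did not overlap in 5 of its 6 probe sets, whose differences ran from 0.55 to 1.59; the sixth differed by 0.10. In the 1 probe set above the filter that is not of a cross-binding type the difference was 0.62 (limma adjusted p = 0.099). That probe set read 4.45 and 4.72 without Cre, so it too passed only through its Cre-positive signal. All others except the brightest lay below the filter. Over all alternatives, nearly all of them on the brightest probe set, the adjusted p of Vldlr ran from 0.0031 to 0.129.

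Ddit4, an inhibitor of mTORC1 induced by stress and glucocorticoids, read 10.50 and 9.90 without Cre and 10.46 and 10.34 with Cre, so that the difference of 0.20 lay within the spread of the Cre-negative mice. Sesn2, a leucine sensor that restrains mTORC1, differed by −0.23 and the secreted glycoprotein gene Stc2 by 0.08, both with overlapping groups. Chac1, which degrades glutathione and is a sensitive marker of ATF4 activity, lay below the filter at 3.97 to 4.33.

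Among the other amino acid enzymes Pck2 rose. It encodes the mitochondrial enzyme that makes phosphoenolpyruvate from oxaloacetate, and read 5.50 and 5.55 without Cre and 6.82 and 6.66 with Cre. The rise was 1.22 ± 0.12 (SE, n = 2 per group; limma adjusted p = 0.023), or 2.33-fold, with no overlap between the groups. Its other probe set, below the filter, differed by 0.38 with no overlap. Averaged over both probe sets the difference was 0.80, and Pck2 was called under all 10 alternatives that kept it and all arrays, though not with an array left out (limma adjusted p = 0.055 to 0.192).

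Aldh18a1, the entry enzyme of proline synthesis, read 7.68 and 7.84 against 8.32 and 8.29, a difference of 0.55 ± 0.12 (SE; limma adjusted p = 0.096). Its 5 probe sets ran from 0.07 to 0.55. Asns, the asparagine synthetase gene, read 4.31 and 4.47 without Cre and 4.53 and 4.14 with Cre; the groups overlapped and all 4 values were below the filter. Cbs, of the transsulfuration pathway, and the aspartate aminotransferase gene Got1 differed by 0.03 and 0.05. Cth, which acts after Cbs, lay below the filter with a difference of 0.53, from 3.04 and 3.21 to 3.86 and 3.44.

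Gpt2, the mitochondrial alanine aminotransferase, was below the filter in all 4 probe sets, and these disagreed. The brightest differed by 0.01, while the next read 3.66 and 3.36 without Cre and 5.39 and 4.41 with Cre, a difference of 1.39. Over all members, 26 genes had more than 1 probe set, and in 15 of these every probe set differed in the same direction.

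**Figure D4:**
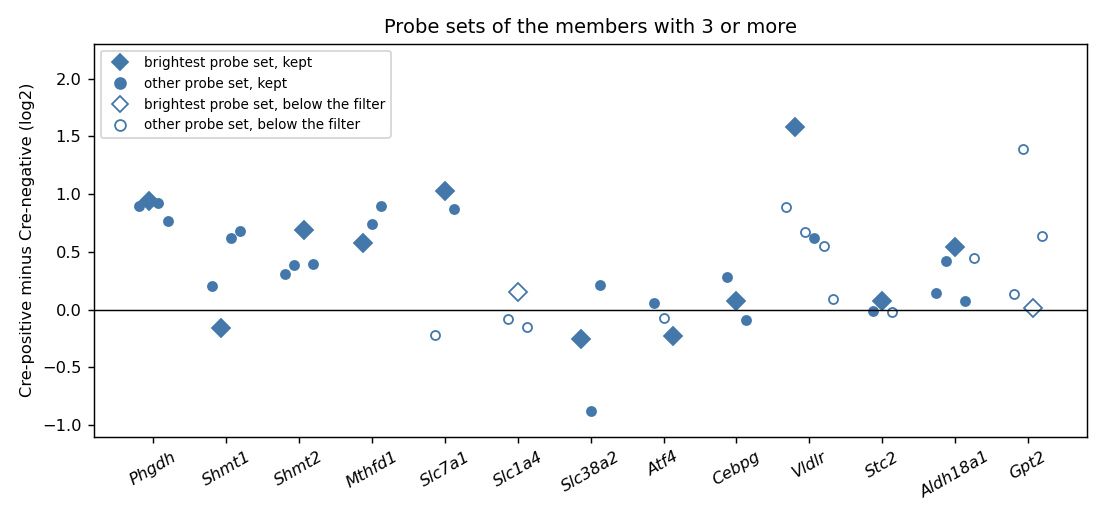
Difference between Cre-positive and Cre-negative mice (log2) for each probe set of the 13 members with 3 or more; diamonds mark the brightest probe set of a gene and open symbols those below the signal filter. The probe sets of Phgdh (0.77 to 0.94), Mthfd1 (0.57 to 0.89) and Shmt2 (0.31 to 0.69) lie on one side of 0, and those of Shmt1, Slc38a2 and Slc7a1 on both.

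Across arrays the roles differed in how the mice of a group agreed. The deviation of each gene from its own mean over the 4 arrays was averaged over the kept genes of a role. For serine synthesis it was −0.45 and −0.16 without Cre and 0.27 and 0.34 with Cre. For the folate enzymes it was −0.43 and 0.09 against 0.06 and 0.28, so that Cre-negative sample 2 lay above Cre-positive sample 1. For the ATF4 regulators the values stayed between −0.10 and 0.06.

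Cre-negative sample 1 was the lowest of the 4 arrays for 15 of the 29 members (51.7%), against 31.6% of all kept genes. As a mean over the list, the growth and proliferation genes were lowest on Cre-negative sample 1 and highest on Cre-positive sample 2. The means of the serine synthesis and folate genes had the same lowest and highest arrays, but single genes departed from this. Phgdh and Shmt2 were highest on Cre-positive sample 1, and Psph and Shmt1 on Cre-negative sample 1. The mean deviation of the growth and proliferation genes was −0.72 and 0.10 without Cre and 0.00 and 0.62 with Cre. Cre-negative sample 1 was lowest for all 14 of them that were kept. Within that list Myc, a driver of amino acid uptake and one-carbon genes in growing lymphocytes, rose by 1.49 ± 0.20 (SE; limma adjusted p = 0.041), from 6.09 and 6.52 to 7.97 and 7.62. The part of proliferation and of Myc in the differences of the members was not tested.

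**Figure D5:**
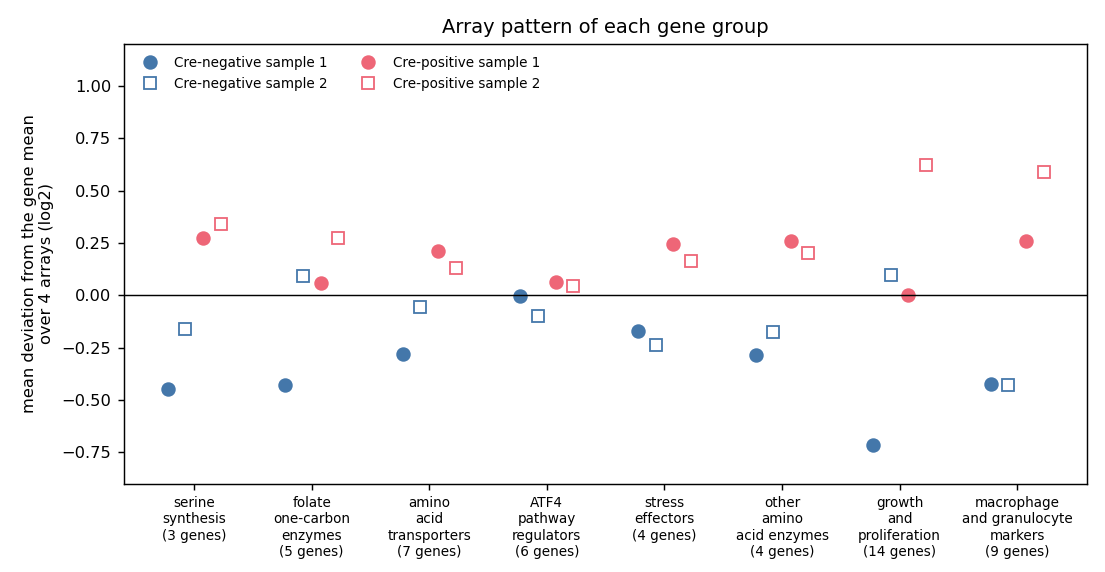
Mean deviation of the kept genes of each role from their own mean over the 4 arrays (log2), by array, with the growth and proliferation genes and the macrophage and granulocyte markers beside them. Cre-negative sample 1 is lowest for serine synthesis (−0.45), the folate enzymes (−0.43), the transporters (−0.28) and the proliferation genes (−0.72); Cre-negative sample 2 lies below both Cre-positive arrays for serine synthesis but not for the folate enzymes or the proliferation genes.

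Some markers of other cell types also differed between the groups. Of 13 macrophage and granulocyte markers 9 passed the filter, 1 was called higher, Lyz2 (1.85 ± 0.17, SE; limma adjusted p = 0.018), and 4 were higher and 0 lower at an unadjusted p under 0.05. Both Cre-positive arrays lay above the others for 6, as they did for 34.2% of all kept genes. Among the 6 were the complement genes C1qa (1.11), C1qc (0.95) and C1qb (0.49) and the adaptor gene Tyrobp (0.82). Without Cre, C1qc (4.48 and 4.69), S100a8 (4.50 and 4.02) and the mean of C1qb (4.71) lay below the filter. These genes were kept only through their Cre-positive signal and had to be higher on average to be counted. Adgre1, Csf1r and Fcer1g differed by −0.03, 0.19 and 0.06, with overlapping groups, and Cd68, Cd14, Itgam and S100a9 had a mean below the filter. Cre-positive sample 2 stood apart in granulocyte genes, with S100a8 at 8.38 against 4.02 to 4.52 and S100a9 at 7.14 against 3.74 to 3.93 on the other arrays. The mean signal of the 9 was 5.02 on each Cre-negative array and 5.71 and 6.03 on the Cre-positive arrays, and without S100a8, left out after its values were seen, it was 5.09 and 5.14 against 5.85 and 5.74. Of 10 dendritic cell markers 8 passed, 1 was called higher, H2-Ab1 (1.58 ± 0.22, SE), and 4 were higher and 0 lower at an unadjusted p under 0.05, all of them genes of antigen presentation by MHC class II (H2-Aa 2.25, H2-Eb1 1.68 and Cd74 0.89 beside H2-Ab1). Itgax differed by 0.27 with no overlap between the groups. It read 4.59 and 4.71 without Cre, below the filter, so it was kept only through its Cre-positive signal. Ciita, Flt3 and Siglech differed by −0.03, −0.16 and 0.01, with overlapping groups, and Xcr1 lay below the filter. The mean signal of the 8 was 5.75 and 5.39 without Cre and 6.37 and 6.39 with Cre.

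Of 10 stromal and epithelial markers 7 passed and 1 was called higher, Pdgfrb (1.05 ± 0.14, SE), and their median difference was −0.0044, with 3 of the 7 above 0. Their mean signals of 5.55 and 5.60 against 6.59 and 6.17 were carried by Col1a2, at 5.18 and 5.33 without Cre and 11.55 and 8.01 with Cre (4.52 ± 1.07, SE; limma adjusted p = 0.107), and without it, again a choice made after seeing the values, were 5.62 and 5.64 against 5.76 and 5.86. Of 6 B cell markers 4 passed and 0 were called in limma (1 at an unadjusted p under 0.05, Ms4a1), with mean signals of 7.70 to 7.91. Ms4a1 differed by 0.71 and Ighm by −0.27. Without Cre, Ms4a1 read 4.71 and 4.42, below the filter. It was kept only through its Cre-positive signal and had to be higher on average to be counted. The part of such cells in the differences of the members was not tested.

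Other genes of the same pathways, listed by role, were mostly not called. Of 14 kept genes of folate, glycine and methionine metabolism outside the members, 1 was called higher and 0 lower (4 and 1 at an unadjusted p under 0.05): Aldh1l1, the cytosolic formyltetrahydrofolate dehydrogenase that releases one-carbon units as carbon dioxide. It read 4.35 and 4.48 without Cre, below the filter, and 6.43 and 6.57 with Cre. The fitted rise was 2.09 ± 0.12 (SE; limma adjusted p = 0.0071), of a gene that, like Vldlr, was tested only through its Cre-positive signal. Of 15 other amino acid transporters 1 was called higher and 0 lower (2 and 1 unadjusted), Slc36a4, a carrier of proline and tryptophan, which rose by 1.56 ± 0.19 (SE; limma adjusted p = 0.037).

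The tRNA synthetases, the translation arm of the ATF4 response, were not called: 0 of 19 cytosolic ones passed in limma, 6 were higher and 0 lower at an unadjusted p under 0.05, and their median difference was 0.20. Among them Vars differed by 0.72 and Eprs by 0.50. The other lists had 0 calls in limma as well. Of 12 genes, the eIF2 alpha kinases, phosphatase subunits and exchange factors listed with Eif4ebp1, 2 were higher and 0 lower unadjusted. Eif2ak2, an interferon-inducible kinase, differed by 0.72 and Eif2b3 by 0.53. Of 11 purine synthesis genes 4 were higher and 0 lower unadjusted, with Atic at 0.76 and Gart at 0.42, and a median of 0.20.

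Of 15 genes of the endoplasmic reticulum unfolded protein response, the other stress route to eIF2 alpha, 5 were higher and 1 lower unadjusted. The chaperone genes Hyou1 and Calr differed by 0.70 and 0.68, and the median was 0.29. Of 14 genes of amino acid sensing upstream of mTORC1 1 was higher and 1 lower unadjusted, with Sesn1 at −0.42, Lamtor1 at 0.41 and a median of −0.01. Of 9 glutamate, proline and aspartate enzymes 2 were higher and 1 lower unadjusted, with Pycrl at 0.48 and Glul at −0.43.

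The 4 calls rested on 2 arrays per group. Without Cre-negative sample 1 or without Cre-negative sample 2, 0 of the 29 members were called in limma (11 higher and 1 lower at an unadjusted p under 0.05 in each case), and without either Cre-positive sample only Vldlr was, although no difference of the 4 genes fell below 0.82 on leaving out an array. The smallest two-sided p that an exact permutation test of 1 gene can reach with these 4 arrays is 0.333.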

How the data were processed

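Gene expression was measured on 4 Affymetrix arrays of double positive thymocytes, 2 per group. The values are log2 signals that the authors computed with RMA (background subtraction, normalization between arrays, 1 summary per probe set), per the submitters' processing notes, which state no version; the base of the logarithm was taken from the scale RMA returns. RNA was amplified in 2 cycles, per the labels' protocols. RMA gives no counts, so the number of arrays limits the precision. The SE and p-values of limma combine the spread between these mice with a spread estimated over all kept genes. The shared spread had 3.59 degrees of freedom, against 2 from the mice.

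Of 45037 probe sets, 34945 had 1 gene symbol in the platform annotation, 932 several and 9160 none; 34741 matched the RefSeq table (GRCm38.p6) by Entrez identifier. Each of 18193 genes took its probe set with the highest mean, and 11639 genes at or above the 40th percentile of named probe sets (4.76) were kept. Cre-positive minus Cre-negative was fitted with limma 3.58.1 (R 4.3.3; lmFit, eBayes), two-sided, with Benjamini-Hochberg adjustment over all kept genes. The fit was first tested on simulated data.

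The members, lists, test and alternatives were chosen with earlier results of these data known. All 39 members are named; array values are given for members that differed by at least 0.6 or were called, for Atf4, Ddit3, Asns and Phgdh, and for some others chosen after their values were seen. Of each other list the called genes are named, or else the 2 with the largest difference. Alternatives varied the filter, probe set choice, variance prior, scaling, array weights, sample number as a block and single arrays left out. Figures were drawn with matplotlib 3.10.9.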

Additional observations from a re-analysis of the deposited data

How the results depend on the processing

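Over all genes 160 were called. The count was 90 with the filter at the 60th percentile, 104 when probe sets with the suffixes _x_at, _s_at and _a_at were dropped because they can bind several transcripts, and 245 with a robust variance prior. With 1 array left out it was 3 (no Cre-negative sample 2) to 99 (no Cre-positive sample 2). Of the members 4 were called. The limma count was 0 with the filter at the 60th percentile, which Pck2, Slc7a5 and Vldlr did not reach (6 higher and 1 lower at an unadjusted p under 0.05), and 0 when the suffixes were dropped (5 higher and 1 lower). The count was 2 when the probe sets of a gene were averaged, 2 when all probe sets were fitted separately and 2 with arrays centred on their median over kept genes, an alternative chosen after seeing the data. With 1 array left out it was 0 to 1. The median difference of the members stayed between 0.04 and 0.28.

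The labels number the samples in each group without saying that a number pairs mice, and the deviations of same-numbered samples correlated at 0.177. With the sample number as a replicate block 821 genes and 7 members were called, the added members being Psat1, Slc7a1 and Slc7a11.

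Some members that were not called changed sign. With arrays centred over kept genes, Cbs was −0.10, Cebpg −0.053, Got1 −0.077, Slc38a1 −0.0063, Stc2 −0.052 and Trib3 −0.044; with arrays centred over all probe sets Cbs was −0.0050. Averaged probe sets gave 0.34 for Shmt1 and −0.059 for Slc38a1, and dropping the suffixes gave −0.24 for Slc38a1. With 1 array left out, Cbs ran from −0.096 to 0.15, Cebpg from −0.068 to 0.22, Ddit4 from −0.10 to 0.50, Mthfd1l from −0.060 to 0.39, Psph from −0.16 to 0.023 and Slc3a2 from −0.48 to 0.11. The causes were not tested. The number of arrays, 2 per group, limits every value.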

Other observations

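Phgdh was also covered by 2 probe sets that the platform annotation assigns to Phgdh together with a predicted gene and that entered no comparison. They read 8.01 and 8.30 without Cre and 9.19 and 9.16 with Cre, and 7.36 and 7.68 against 8.43 and 8.30. Their differences were 1.02 and 0.85, near those of the 4 Phgdh probe sets with a single symbol.

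Slc7a7, a light chain that joins Slc3a2 to export cationic amino acids and that was chosen after its values were seen, read 4.90 and 5.32 without Cre and 6.32 and 5.90 with Cre, a difference of 1.00 ± 0.21 (SE, n = 2 per group; limma adjusted p = 0.083).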
